A study of Nematostella vectensis with 96 samples.

Results

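Gene expression under any light was compared with expression in darkness during the hours of the photoperiod in the starlet sea anemone Nematostella vectensis, an eyeless cnidarian. The comparison used the 48 of 96 libraries that were collected at ZT2, ZT6 and ZT10, where zeitgeber time (ZT) counts hours from lights on at ZT0. Each library was made from 1 whole adult from a laboratory-bred population of Maryland origin, and animals were not pooled. Animals had been kept for 1 month under red, green or blue LED light in cycles of 12 h light and 12 h dark, or in constant darkness (DD), and all groups were starved for 2 days before sampling. At these 3 time points the animals in light cycles were under light, and the animals in DD had been without light for the whole month. Each of the 12 groups of colour and time point had 4 animals, and replicates were therefore separate animals. The animals were split into a treatment group for each light condition, and the number of dishes in each is not stated. The DD group was fed and had its water changed during lights off. Light, culture group and time of handling therefore cannot be told apart, and the p values measure spread between animals. The groups were joined into sets of 35 libraries from light cycles (11 red, 12 green and 12 blue) and of 11 libraries from DD. A library was left out when it held under 100000 counts, which removed red ZT6 replicate C (1455 counts) and DD ZT6 replicate D (25683 counts). The 3 colours were given equal weight, so that an exchange of the green and blue labels would leave the pooled comparison the same.

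Animal clocks are built from transcription factors of the bHLH-PAS class, such as Clock, which drive the transcription of genes whose products later hold them back. Light sets such clocks through photoreceptors, and cryptochromes, flavoproteins related to DNA repair photolyases, are blue-light receptors in many animals. Cnidarians such as Nematostella have Clock, cryptochromes and several PAR-bZIP factors (proline- and acid-rich basic leucine zipper proteins, which carry clock output in vertebrates and act within the clock in flies), and they sense light without eyes.

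Total counts ranged from 104048 to 632353 in the 35 light libraries and from 138366 to 591523 in the 11 DD libraries. The totals of the 2 sets did not differ beyond their spread (log2 difference -0.045, two-sided permutation test, p = 0.815). The lowest totals belonged to blue ZT10 replicate D and DD ZT2 replicate A, and the count of called genes below is also given without both. A level below is in CPM, that is, counts scaled to a common normalized library total, and every test is edgeR's quasi-likelihood test with Benjamini-Hochberg adjustment over all genes tested, with a gene called at a false discovery rate (FDR) of 10%.

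Light and darkness differed in 492 of 9911 genes tested (4.96%), and 1652 genes had an unadjusted p under 0.05. Of these, 218 (2.20%) were higher in light and 274 (2.76%) were lower. Most differences were modest: the median log2 difference was 0.65 among the genes called higher and -0.63 among those called lower, and 70 of the 492 passed a 2-fold change. The median over all genes tested was 0.00. No gene separated the sets completely, since in all 9911 genes the range of the 35 light libraries overlapped that of the 11 DD libraries. The count of calls rested strongly on single DD animals. It was 187 without DD ZT2 replicate C, 241 without DD ZT10 replicate A, 248 without DD ZT6 replicate A and 314 without DD ZT2 replicate B, and it was 484 without both libraries of lowest total.

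The 4 smallest p values of all genes belonged to transcription factors of the helt and bZIP kinds. Of 12 clock and light genes, 7 (58.3%) were called higher in light and 0 lower. The share called higher was 2.20% of all genes tested and 11% of the 1645 tested genes that carry annotation words. The median log2 difference of the 12 genes was 0.87, against 0.21 for genes with annotation words. The number called higher among the 12 stayed at 6 to 7 with any 1 library left out. It was 5 to 7 with a replicate letter left out. These genes are of interest to the study, and a list chosen on these animals is no independent evidence of its direction. In whole animals, fewer cells that express a gene and less of its RNA in each cell cannot be told apart.

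The smallest p value of all genes belonged to helt (NVE8679), a HES/HEY-family bHLH factor whose relatives in bilaterians repress transcription. Its level ranged from 4.48 to 209 CPM in light with a median of 76.9 CPM, and from 0 to 35.8 CPM in DD with a median of 13.6 CPM. All 11 DD libraries lay below the light median, and 28 of the 35 light libraries lay above the highest DD library. The log2 difference was 2.30 ± 0.30 (SE; edgeR quasi-likelihood test with Benjamini-Hochberg adjustment, adjusted p = 7.63e-06). By colour, median helt levels rose in the order red (33.1 CPM), green (75.2 CPM) and blue (140 CPM).

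PAR-bZIPa (NVE14677) was at 12.8 to 254 CPM in light (median 93.6 CPM) and at 0 to 46.1 CPM in DD (median 13.6 CPM). No DD library reached the light median and 24 light libraries exceeded every DD library. The log2 difference was 1.94 ± 0.31 (adjusted p = 0.000345). A further bZIP gene, NVE5408, is annotated as similar to hepatic leukemia factor, a PAR-bZIP factor of mammals. The study describes it as closely similar in sequence to PAR-bZIPa. Only reads assigned to 1 gene were counted, so reads that fit both genes would be missing from each count. NVE5408 ranged from 40.3 to 666 CPM in light (median 224 CPM) and from 30.2 to 150 CPM in DD (median 104.4 CPM), with a log2 difference of 1.13 ± 0.19 (adjusted p = 0.00125).

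PAR-bZIPd (NVE8085) had the largest log2 difference of the 12 clock and light genes, and most of it came from blue light. In DD its 11 libraries held 9 counts in all and 5 of them held none, with a highest level of 5.76 CPM. The red libraries held 11 counts, the green libraries 50 and the blue libraries 1254. The lowest blue library was at 105.7 CPM, above every DD, red and green library, whereas the red libraries ranged from 0 to 7.6 CPM. The pooled log2 difference was 2.99 ± 0.46 (adjusted p = 0.000243). With all light libraries joined as 1 factor, in place of equal weights for the colours, it was 5.39 (adjusted p = 0.0179).

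The cryptochrome gene Cry1a (NVE1138) ranged from 4.14 to 104.97 CPM in light (median 25.4 CPM) and from 0 to 17.3 CPM in DD (median 7.75 CPM). All DD libraries lay below the light median, and 25 light libraries exceeded the highest DD library. The log2 difference was 1.42 ± 0.26 (adjusted p = 0.00213). Clock (NVE2080) itself was a low gene, at 2.04 to 73.3 CPM in light (median 11.4 CPM) and at 0 to 17.3 CPM in DD (median 3.1 CPM). Its sets overlapped more widely, with 11 of 35 light libraries above every DD library, and the log2 difference was 1.62 ± 0.36 (adjusted p = 0.0111). The call was lost when all libraries of replicate letter A were left out (adjusted p = 0.131). CK1 delta/epsilon (NVE6915), the homolog of a kinase that phosphorylates clock proteins in flies and mammals, was higher by 0.61 ± 0.19 on the log2 scale (adjusted p = 0.0676), with a median of 62.7 CPM in light and 40.3 CPM in DD. That call was lost without DD ZT2 replicate D (adjusted p = 0.134) or DD ZT6 replicate A (adjusted p = 0.114).

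**Figure D1:**
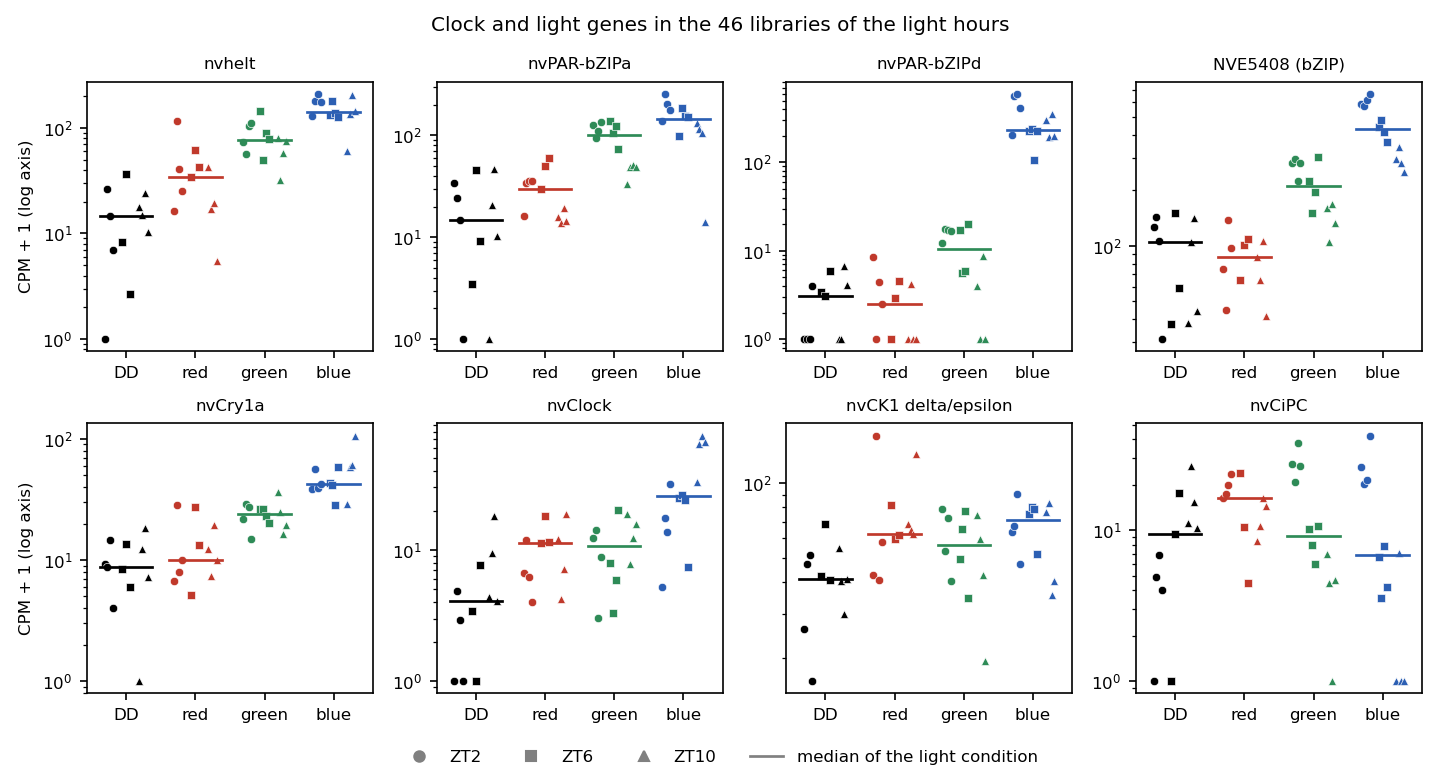
Levels of 8 clock and light genes in the 46 libraries of ZT2, ZT6 and ZT10, as CPM + 1 on a log axis, by light condition; each point is 1 animal, the marker gives the time point and the line the median of the condition. Blue libraries of PAR-bZIPd all lie at or above 105.7 CPM while no DD library passes 5.76 CPM, and helt medians step up from DD through red and green to blue.

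The other 5 clock and light genes were not called. PAR-bZIPb (NVE20636) differed by 0.17 (adjusted p = 0.677), and its medians were 71.7 CPM in light and 61.1 CPM in DD. Timeout (NVE19057), a paralog of the fly clock gene timeless, differed by -0.15 (adjusted p = 0.767), the second cryptochrome Cry1b (NVE24214) by 0.12 (adjusted p = 0.846), and PAR-bZIPc (NVE8107) by -0.02 (adjusted p = 0.991). The fifth, CiPC (NVE4116), named for the CLOCK-interacting pacemaker of mammals, differed by 0.23 when the time points were averaged (adjusted p = 0.842).

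CiPC was the gene in which the average hid opposite values. It was the only 1 of 9911 genes (0.0101%) whose difference between light and darkness itself differed among ZT2, ZT6 and ZT10 (adjusted p = 0.0645), while 500 genes had an unadjusted p under 0.05 in that test. At ZT2 the DD animals were at 0, 3.02, 3.87 and 5.85 CPM, and the 12 animals in light were at 15.2 to 41.2 CPM. The log2 difference at ZT2 was 2.50 (adjusted p = 0.0244). At ZT10 the order was the opposite for blue and green: the DD animals were at 9.31, 10.1, 14.4 and 25.4 CPM, the blue animals at 0, 0, 0 and 6.08 CPM, and the green animals at 0, 3.44, 3.67 and 5.90 CPM. The red animals at ZT10 were at 7.47 to 15.4 CPM, which overlaps the DD range. The pooled log2 difference at ZT10 was -1.67, which was not called. The test among time points called 0 genes with the replicate letter as a block, and also without letter B, C or D.

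In 6 clock and light genes the difference from DD was not the same in each colour. Colours are as the labels give them; whether green and blue are the right way round was not settled here, and every green and blue value would change places if these labels were exchanged. The 3 colours differed from each other in 50 genes (0.504%), of which 13 were among the 492, and the 6 were among these 13. The log2 difference from DD was 1.23 in red, 2.37 in green and 3.31 in blue for helt (difference between colours, adjusted p = 4.76e-05). For PAR-bZIPa (NVE14677) it was 0.64, 2.22 and 2.95 in the same order (adjusted p = 2.69e-05), for Cry1a (NVE1138) 0.46, 1.40 and 2.40 (adjusted p = 2.43e-05), for NVE5408 -0.07, 1.20 and 2.27 (adjusted p = 2.53e-09), for Clock (NVE2080) 1.05, 1.16 and 2.65 (adjusted p = 0.00387), and for PAR-bZIPd (NVE8085) 0.03, 2.00 and 6.93 (adjusted p = 4.59e-22). Of these 6 genes, only helt passed the test of red alone against DD (adjusted p = 0.051). In NVE5408 the red median (85.9 CPM) lay below the DD median (104.4 CPM), and the 4 blue animals at ZT2 were at 569 to 666 CPM.

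The time of day within the photoperiod also showed in the levels. PAR-bZIPd was highest in blue at ZT2 (205 to 595 CPM), against 105.7 to 240 CPM at ZT6 and 194 to 349 CPM at ZT10. Clock was highest in blue at ZT10 (31.7 to 73.3 CPM), where DD animals were at 3.1 to 17.3 CPM. PAR-bZIPa in red was at 12.8 to 18.5 CPM at ZT10 and 28.9 to 59.3 CPM at ZT6, and in DD at 0 to 46.1 CPM and 2.45 to 44.3 CPM at the same times. These orders were not tested gene by gene, and the difference between light and darkness was not called as differing among time points for any of the 3.

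The other 7 of the 13 genes are named because they differed between colours, after their values were seen. Of these, 4 carry annotations and followed the order red, green, blue. Phospholipase A2 group XV (NVE10565), which in mammals is a lysosomal phospholipase, had median levels of 11.6 CPM in DD, 9.59 CPM in red, 36.1 CPM in green and 94.6 CPM in blue (difference between colours, adjusted p = 2.36e-06). Sym32 (NVE4355), named in anemones as a putative cell adhesion protein, had medians of 191 CPM in DD and 291, 409 and 957 CPM in red, green and blue (adjusted p = 0.0031). A pair of genes annotated as heme binding protein 2 behaved alike in their medians: NVE9601 went from 78.98 CPM in DD to 332 CPM in blue (adjusted p = 3.73e-07) and NVE2673 from 130 CPM in DD to 567 CPM in blue (adjusted p = 0.0136). The serine/arginine repetitive matrix 1 gene (NVE13662), a splicing coactivator in mammals, had its highest median in red (111.9 CPM, against 68.2 CPM in DD; adjusted p = 0.0942). The remaining genes, NVE11968 and NVE23069, carry no annotation words.

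Of the 492 calls, 489 had the same sign in all 3 colours, but the genes were chosen on the mean of these contrasts. The contrasts also share the DD libraries, so this count cannot show that every colour carried the calls. Of the 492, 299 were called with the same sign in red alone, 42 in green alone and 72 in blue alone. With each colour tested alone, 454 genes (4.58%) differed from DD in red, 253 higher (2.55%) and 201 lower (2.03%). In green the count was 43 (0.434%), with 24 higher (0.242%) and 19 lower (0.192%). In blue 1.03% of the 9911 genes were called, 64 higher (0.646%) and 38 lower (0.383%). The order of the colours by this count was not stable: without replicate letter D, 0.921% of genes were called in red, 1.17% in green and 0.42% in blue. Only 10 genes passed in each of the 3 colours: helt, an snRNA-associated gene (NVE6172), cytochrome c oxidase assembly factor 5 (NVE7779), theromacin (NVE12939), a zinc finger gene (NVE19215), trichohyalin (NVE11820), an actin depolymerizing factor (NVE18506), a hook gene (NVE10525), NVE18114 and NVE2995.

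The genes lower in light included subunits of the respiratory chain, whose work drives ATP synthesis in mitochondria. Of 34 respiratory chain genes tested, 10 were called lower and 0 higher, 29 of the 34 had a negative log2 difference and the list's median was -0.32. The background is 2.76% called lower among all genes. Among the 1645 tested genes that carry annotation words, which come from the study's own table of genes called on these animals, 20.3% were called, 11% higher and 9.30% lower, against 1.91% of the genes without such words. The median log2 difference of these annotated genes was 0.21, with 66.7% of them positive. Nearly all members of the lists are among them, so the values of annotated genes are given beside those of the lists. The number of respiratory chain genes called lower was 6 without DD ZT2 replicate C and 4 without DD ZT6 replicate A. A subunit of complex III, ubiquinol-cytochrome c reductase (NVE3014), was at 26.2 to 226 CPM in light (median 140 CPM) and at 158 to 309 CPM in DD (median 238 CPM). All DD libraries lay above the light median and 25 light libraries lay below the lowest DD library, with a log2 difference of -0.61 ± 0.13 (adjusted p = 0.00895). Among the NADH dehydrogenase (complex I) genes, NVE13724 fell by 0.57 on the log2 scale (adjusted p = 0.0111) and NVE10852 by 0.63 (adjusted p = 0.0134), and a pair of ATP synthase subunits, NVE21177 (-0.69) and NVE15615 (-0.47), were also called. Cytochrome c oxidase assembly factor 5 (NVE7779), which in yeast and mammals helps build complex IV and was outside the list, was at 12.4 to 67.3 CPM in light (median 35 CPM) and at 40.3 to 89.6 CPM in DD (median 69.1 CPM), with a log2 difference of -0.85 ± 0.15 (adjusted p = 0.00213). The summed level of the list did not separate the sets, with medians of 9160 CPM in light and 9440 CPM in DD.

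Theromacin (NVE12939), named for an antimicrobial peptide of leeches, was called lower. It ranged from 359 to 2999 CPM in light (median 1512 CPM) and from 1718 to 4571 CPM in DD (median 3452 CPM). Every DD library exceeded the light median and 21 light libraries lay below the lowest DD library. The log2 difference was -1.02 ± 0.19 (adjusted p = 0.00217). Of 19 innate immunity genes, 4 (21.1%) were called lower and 2 (10.5%) higher, against 9.30% and 11% of annotated genes. Lower were also macrophage migration inhibitory factor (NVE3446, a cytokine in vertebrates; -0.53, adjusted p = 0.0293), a fucolectin (NVE14556, a fucose-binding lectin; -1.03, adjusted p = 0.0429) and a mannan-binding lectin serine peptidase (NVE16646, a complement protease in vertebrates; -1.20, adjusted p = 0.0498). Higher were nuclear factor of activated T-cells (NVE24747; 0.61, adjusted p = 0.0379) and TNFAIP3 interacting protein 1 (NVE19849; 0.36, adjusted p = 0.0891). Without DD ZT2 replicate C 0 genes of the list were called higher, NVE24747 included (adjusted p = 0.113). The list's median log2 difference was 0.17, below the 0.21 of all annotated genes, while its summed level, of which theromacin is a large part, was lower in light (median 3350 CPM against 5380 CPM in DD).

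Further genes called lower carry annotations for binding of actin, copper or small nuclear RNA. Thymosin beta 4 (NVE5400), which sequesters actin monomers in vertebrates, ranged from 472 to 2444 CPM in light (median 1227 CPM) and from 959 to 2546 CPM in DD (median 2213 CPM), and fell by 0.70 on the log2 scale (adjusted p = 0.0119). An actin depolymerizing factor (NVE18506) was at a median of 224 CPM in light and 389 CPM in DD (-0.69, adjusted p = 0.00669). The ATX1 homolog (NVE24610), a copper chaperone in yeast, ranged from 26.2 to 138.4 CPM in light and from 84.5 to 169 CPM in DD (-0.70, adjusted p = 0.00233), and all DD libraries lay above the light median of 83.7 CPM. The snRNA-associated gene NVE6172 was at 14.3 to 64.8 CPM in light and at 36.5 to 91.01 CPM in DD (-0.92, adjusted p = 0.00213).

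A pair of genes called lower had very uneven levels. The cytoplasmic dynein heavy chain gene (NVE25722), a motor protein, had the most negative log2 difference of all called genes (-3.17, adjusted p = 0.00784), but its medians were only 1.73 CPM in light and 3.10 CPM in DD. It was at 0 in 15 light and 3 DD libraries, with a highest level of 94.8 CPM in light and 300 CPM in DD, and its call was lost without replicate letter A. Without DD ZT2 replicate A and blue ZT10 replicate D its log2 difference was -2.38. The ShK-domain gene NVE21776, of the cnidocyte and venom list, was at 0 to 60.8 CPM in light (median 7.35 CPM) and 6.20 to 171 CPM in DD (median 19.9 CPM), with a log2 difference of -1.85 ± 0.34 (adjusted p = 0.00217). Of the 11 DD libraries, 10 lay above the light median, and NVE21776 stayed called with any 1 library left out, though not without replicate letter A (adjusted p = 0.1).

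Genes higher in light included several that remodel chromatin. The helicase domino gene (NVE743), whose fly homolog is the ATPase of a complex that exchanges histone variants, ranged from 42.0 to 175 CPM in light (median 68.8 CPM) and from 8.34 to 62.1 CPM in DD (median 34.9 CPM). No DD library reached the light median and 25 light libraries exceeded every DD library, with a log2 difference of 0.95 ± 0.18 (adjusted p = 0.00308). BRG1 (NVE25265), the ATPase of SWI/SNF complexes, was at 57.3 to 197 CPM in light (median 104.9 CPM) and at 41.7 to 87.1 CPM in DD (median 73.8 CPM), and 27 light libraries exceeded the highest DD library (0.58 ± 0.12, adjusted p = 0.00784). Of 24 chromatin and histone genes tested, 6 (25.0%) were called higher and 1 lower, with a median of 0.31, against 11% higher and a median of 0.21 among annotated genes. The number called higher was 0 to 4 with a replicate letter left out. Besides BRG1, the 6 were a nucleosome-remodeling factor subunit (NVE14563, 0.62), a pair of histone-lysine N-methyltransferases (NVE3571, 0.49; NVE15470, 0.52), a lysine-specific demethylase (NVE23290, 0.48) and a bromodomain gene (NVE16396, 0.63). The gene called lower was a lysine methyltransferase (NVE3464, -0.97).

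**Figure D2:**
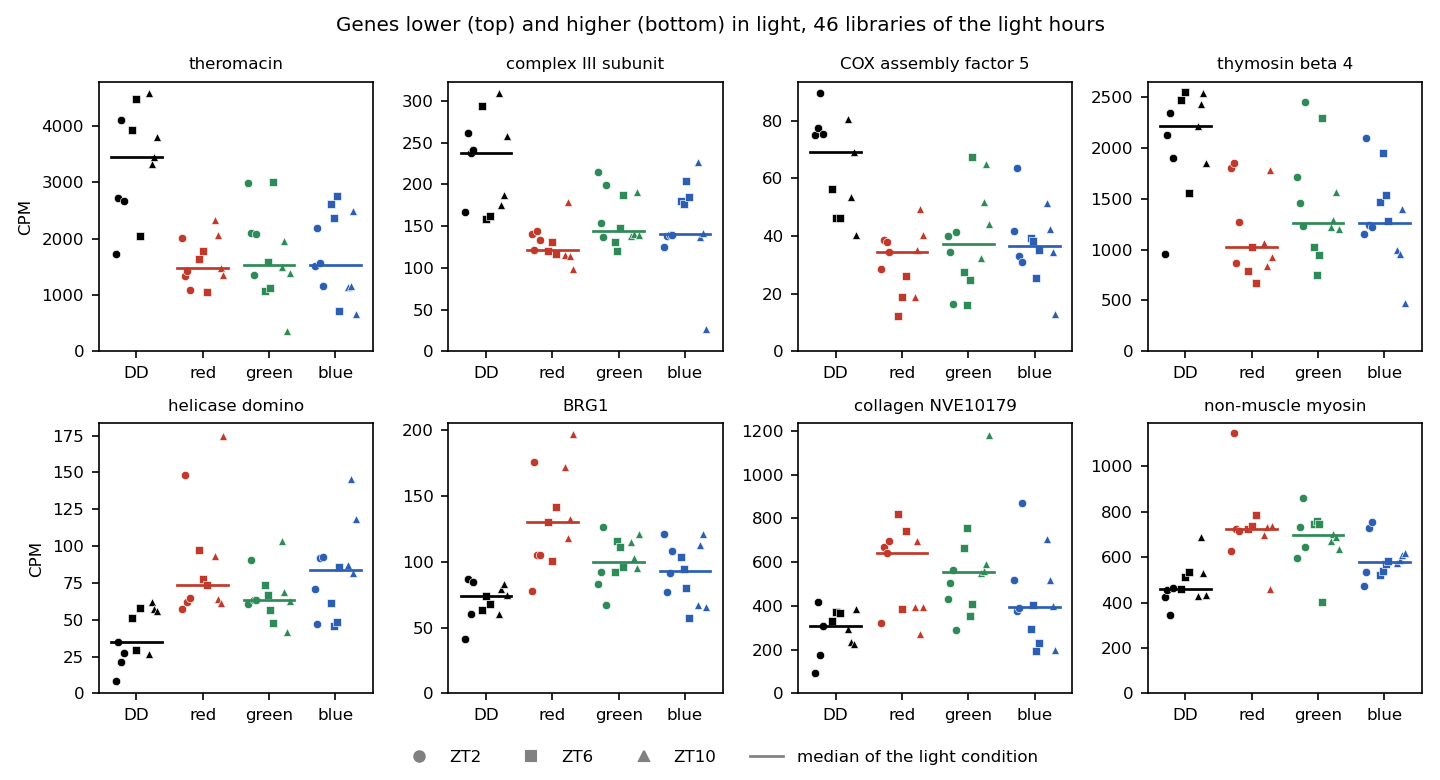
Levels in CPM of 4 genes called lower in light (upper row: theromacin, a complex III subunit, cytochrome c oxidase assembly factor 5 and thymosin beta 4) and 4 called higher (lower row: helicase domino, BRG1, a collagen and a non-muscle myosin), by light condition; each point is 1 animal and the line is the median of the condition. Theromacin medians fall from 3452 CPM in DD to 1512 CPM over the light libraries, and domino medians rise from 34.9 to 68.8 CPM, with overlap in each panel.

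Genes that process RNA moved both ways. Of 30 splicing and RNA processing genes, 6 were called higher and 6 lower, beside 11% higher and 9.30% lower among annotated genes. The counts of the list became 2 higher and 3 lower without DD ZT2 replicate C, and 3 and 2 without DD ZT6 replicate A. YTH domain containing 1 (NVE444), whose vertebrate homolog reads N6-methyladenosine in nuclear RNA, was higher by 0.59 (adjusted p = 0.0111, median 118.2 CPM in light and 89.1 CPM in DD). The matrix genes SRRM1 (NVE13662, 0.50) and SRRM2 (NVE2977, 0.40), PRP4 (NVE3908, 0.56), the PRP40 homolog (NVE20729, 0.63) and PCF11 (NVE8020, 0.37), a cleavage and polyadenylation factor, were higher as well. The lower genes were 3 annotated as snRNA-associated (NVE6172, -0.92; NVE13888, -0.44; NVE18337, -0.49), a pre-mRNA branch site protein (NVE5296, -0.48), THO complex 7 (NVE17325, -0.45) and an RNA binding motif gene (NVE8463, -0.45).

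Of 28 extracellular matrix genes, 6 (21.4%) were called higher and 1 (3.57%) lower, against 11% and 9.30% of annotated genes. The list's median was 0.49, and all 7 called genes carry a collagen annotation. The number called higher was 3 without DD ZT2 replicate C or DD ZT6 replicate A and 11 without DD ZT10 replicate B. The collagen NVE10179 ranged from 195 to 1179 CPM in light (median 502 CPM) and from 91.7 to 416 CPM in DD (median 308 CPM), with a log2 difference of 0.80 ± 0.21 (adjusted p = 0.0307). The collagen triple helix gene NVE491 was higher by 0.67 (adjusted p = 0.0338), and NVE24165, also a collagen triple helix gene, was the one called lower (-0.94, adjusted p = 0.0603). Of 29 actin and muscle genes, 3 (10.3%) were called higher, near the 11% of annotated genes, and the list's median of 0.15 was below theirs: non-muscle myosin heavy chain (NVE4823, 0.47, adjusted p = 0.0111), striated muscle myosin heavy chain (NVE14552, 0.35, adjusted p = 0.0604) and titin (NVE13892, 0.67, adjusted p = 0.0977). Thymosin beta 4 was the one called lower. Without DD ZT2 replicate C, NVE491 (adjusted p = 0.103) and NVE14552 (adjusted p = 0.147) were not called. Non-muscle myosin was at 404 to 1148 CPM in light and at 345 to 688 CPM in DD, and its DD libraries all lay below the light median of 690 CPM.

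The remaining lists held few calls, given here beside 11% higher and 9.30% lower among annotated genes. Of 35 ubiquitin and proteasome genes, 2 (5.71%) were higher and 3 (8.57%) lower. Among them, a ubiquitin specific peptidase (NVE10510, a deubiquitinating enzyme) was higher by 1.24 (adjusted p = 0.0136). A proteasome subunit alpha (NVE21267) was lower by 0.67 on the log2 scale, at medians of 51.4 CPM in light and 86.8 CPM in DD. Of 10 antioxidant and redox genes, 3 (30.0%) were lower: DJ-1 (NVE5964, -0.48), thioredoxin (NVE9896, -0.32) and peroxiredoxin 5 (NVE4251, -0.41). With a single library left out, peroxiredoxin 5 lost its call in 35 of 46 fits, thioredoxin in 19 and DJ-1 in 4. Of 24 chaperones, 1 (4.17%) was higher and 3 (12.5%) lower, and of 32 microtubule, cilia and motor genes, 3 (9.38%) were higher and 2 (6.25%) lower. Of 18 translation factors, 1 (5.56%) was higher and 1 (5.56%) lower. Of 37 ribosomal protein genes, 0 were higher and 1 (2.7%) was lower, with a median of -0.17.

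The lists that mark cell types overlapped between the sets in their summed levels. Their photoperiod calls are given beside 11% higher and 9.30% lower among annotated genes. With the time points averaged, all 7 cnidocyte and venom genes had a negative log2 difference, with a median of -0.56. Of these, 2 (28.6%) were called lower, NVE21776 and the nematocyst-expressed gene NEP-11 (NVE9331, -0.40, adjusted p = 0.0596). The list's median was -0.68 at ZT2, 0.05 at ZT6 and -0.65 at ZT10. Its summed level nevertheless had a lower median in light at each time point. These medians were 864 CPM in light against 1180 CPM in DD at ZT2, 776 against 1200 CPM at ZT6, and 695 against 881 CPM at ZT10. In the dark hours (ZT14, ZT18 and ZT22) 6 of the 7 genes were tested, and their median log2 difference was -0.87. There, 5 were called lower and 0 higher. The summed level of these 7 genes was 484 to 1150 CPM in light and 691 to 1520 CPM in DD. Of 25 digestive hydrolases, 1 (4.0%) was called lower (chitotriosidase-1, NVE9104, -0.69), and their summed level had medians of 11900 CPM in light and 11300 CPM in DD. Of 7 yolk and egg genes, vitellogenin (NVE6616) was lower (-0.60, adjusted p = 0.0526) and a piwi-like gene (NVE1719) was higher (0.84, adjusted p = 0.0717). Of 16 neural genes, 1 (6.25%) was called higher, acetylcholinesterase (NVE1165, 0.88, adjusted p = 0.0587), and their summed level was 564 to 929 CPM in light and 400 to 778 CPM in DD. Summed actin and muscle levels had medians of 16800 CPM in light and 15400 CPM in DD. The lower cnidocyte and higher neural sums moved with the sets, and their part in the other differences was not tested. No gene of these 5 lists was at 0 in every DD library. The calls of NEP-11 (NVE9331), chitotriosidase-1 (NVE9104), vitellogenin (NVE6616), the piwi-like gene (NVE1719) and acetylcholinesterase (NVE1165) were all lost without DD ZT2 replicate C (adjusted p from 0.12 to 0.203), and that of chitotriosidase-1 was lost in 32 of the 46 fits that leave out a single library.

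**Figure D3:**
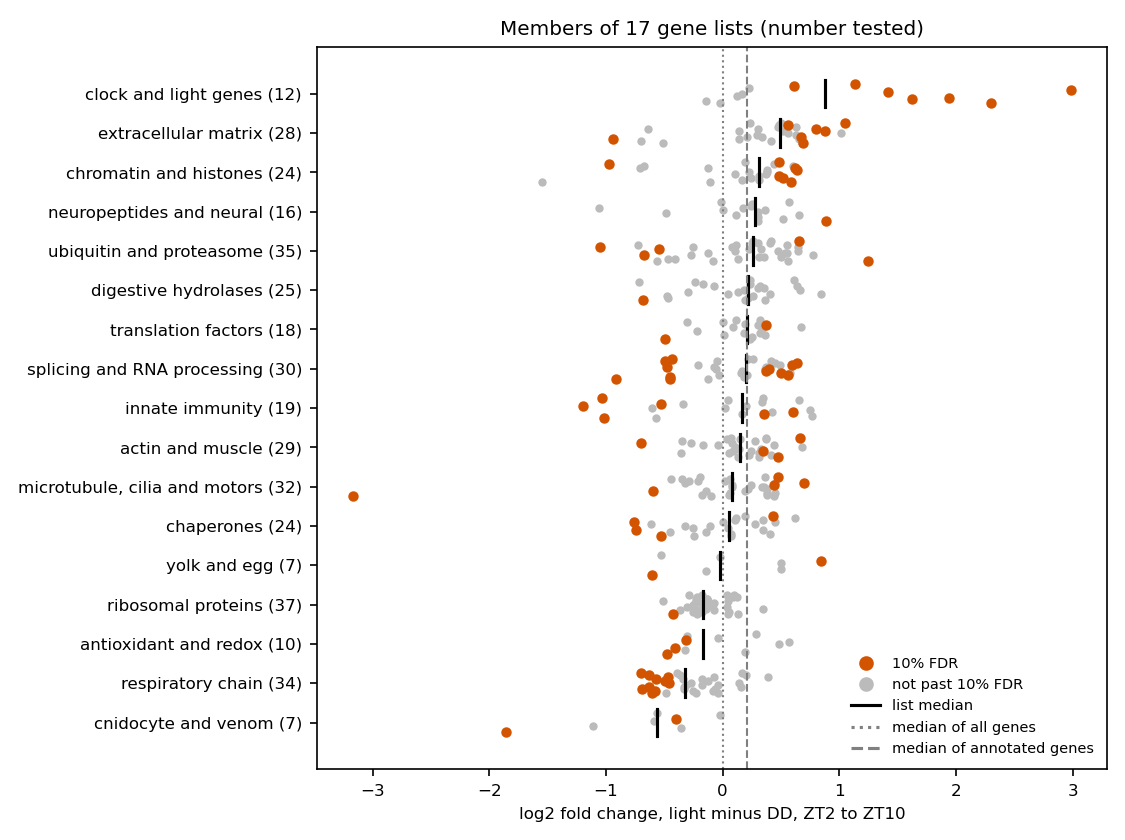
Log2 difference between light and DD over ZT2 to ZT10 for the members of 17 gene lists; each point is a gene, orange marks genes called at 10% FDR, the black bar is the list's median, the dotted line the median of all genes tested (0.00) and the dashed line that of the annotated genes (0.21), which hold nearly all members of the lists. Clock and light genes have the highest median (0.87) and cnidocyte and venom genes the lowest (-0.56), and the called respiratory chain genes all lie below 0.

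Tested alone, the time points gave fewer calls. At ZT2, 175 genes (1.77%) were called, 1.32% higher and 0.444% lower, and this count fell to 5 without DD ZT2 replicate C and to 64 without DD ZT2 replicate D. At ZT6, 3 genes (0.0303%) were called, all lower: NVE21776, NVE14216 and NVE15026. At ZT10, 0 genes were called, with 754 at an unadjusted p under 0.05 by edgeR's quasi-likelihood test. Of the 492 genes, 476 had the same sign at all 3 time points, which are parts of the pooled value. The 3 DD animals at ZT6 that gave the NVE21776 difference were at 19.9, 118.04 and 171 CPM.

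The same comparison in the dark hours (ZT14, ZT18 and ZT22), when animals of every group were in darkness, used other animals throughout: 36 from light cycles and 11 from DD. There, 219 of 9240 genes (2.37%) were called, 81 higher (0.877%) and 1.49% lower. Of the 492 photoperiod genes, 473 were tested at night and 420 (88.8%) had the same sign, against 65% of the 9105 genes tested in both. A call with the same sign was made for 70 genes, which are 14.2% of the photoperiod calls and 32.0% of the night calls. Among these 70 were 19 that were higher and 51 that were lower. The direct test of photoperiod against night called 0 of 9597 genes (533 at an unadjusted p under 0.05 by edgeR). No gene was thus shown to differ between day and night in its difference between light cycles and DD.

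Several of the lower genes kept values of like size at night. Cytochrome c oxidase assembly factor 5 (NVE7779) was at -0.85 in both, with adjusted p = 0.00214 at night. Theromacin (NVE12939) was at -1.02 by day and -0.88 at night (adjusted p = 0.00721), thymosin beta 4 (NVE5400) at -0.70 and -0.56 (adjusted p = 0.00293), and the actin depolymerizing factor (NVE18506) at -0.69 and -0.56 (adjusted p = 0.00311). Of the clock genes called by day, PAR-bZIPd (NVE8085) was also called at night (3.80, adjusted p = 0.00413). Its night DD libraries were at 0 to 4.45 CPM at ZT14 and at 0 at ZT18 and ZT22. Blue medians were 70.7, 42.9 and 12.4 CPM at ZT14, ZT18 and ZT22, against 488, 225 and 249 CPM at ZT2, ZT6 and ZT10. No red or green animal passed 13.0 CPM at night. The larger log2 value at night is therefore not a higher level. The gene helt (NVE8679) went from 2.30 to 0.14 (adjusted p = 0.922), PAR-bZIPa (NVE14677) from 1.94 to 0.59 (adjusted p = 0.493) and Cry1a (NVE1138) from 1.42 to 0.91 (adjusted p = 0.16). NVE5408 went from 1.13 to 0.13 (adjusted p = 0.854) and CK1 delta/epsilon (NVE6915) from 0.61 to 0.50 (adjusted p = 0.14). Of those not called by day, PAR-bZIPc (NVE8107, -0.02 by day) and CiPC (NVE4116, 0.23 by day) were called at night (1.09, adjusted p = 0.0579, and 1.08, adjusted p = 0.0594). Clock was too low to be tested at night. The domino gene (NVE743) was at 0.95 and 0.53 (adjusted p = 0.055 at night), and YTH domain containing 1 (NVE444) at 0.59 and 0.82 (adjusted p = 0.00214).

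**Figure D4:**
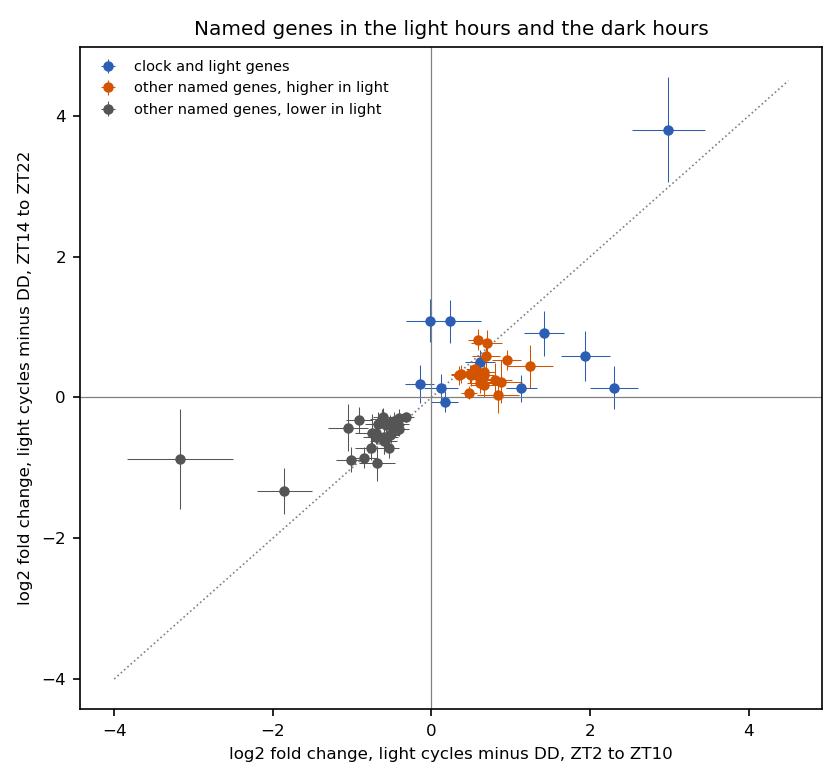
Log2 difference between light cycles and DD for the named genes in the photoperiod (ZT2 to ZT10, horizontal axis) and in the dark hours (ZT14 to ZT22, vertical axis), with standard errors as bars; the dotted diagonal marks equal values. Theromacin and thymosin beta 4 lie near the diagonal, and helt lies far below it, at 2.30 by day and 0.14 at night.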

How the data were processed

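The authors made tag-based RNA-seq libraries from single whole animals. Per the study's methods and the submitters' processing notes, reads were trimmed and quality filtered, PCR duplicates were removed, and reads were mapped with Bowtie2 to the Vienna transcriptome. The deposited table gives raw counts for 23927 gene models in 96 libraries; no coordinates or sequences were used here. The authors filtered genes below a mean count of 3 and used DESeq2 with a 10% FDR.

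Low genes were removed (mean below 3 over the 46 libraries used). The fit used edgeR 4.0.16 in R 4.3.3, with limma 3.58.1: TMM normalization, terms for light condition and time point, the contrast of the mean of the 3 colours against DD, glmQLFit and glmQLFTest, and Benjamini-Hochberg adjustment. Single time points were tested in a fit of 12 groups, and fitted log2 values use edgeR's default prior count. A prior count of 2 was used only for the log CPM behind the correlations of replicate letters. CPM were computed with TMM-scaled totals. CPM were not scaled by transcript length, and no test compared the levels of different genes. Levels of the members of a list were added only to give its summed level. The fit was tested on simulated data. Figures were drawn with matplotlib 3.10.9.

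The precision is limited by depth, at 104048 to 632353 counts per library: 1 count is a large share of the level of a low gene. Replicates of a group differed by more than counting noise (chi-square per degree of freedom 2.75 to 22.4 over 66 pairs), so none was a repeat of another.

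Named genes were the 12 clock and light genes, the 10 annotated genes of smallest p in each direction, the 4 of smallest p in each direction whatever their annotation, and up to 3 called members of smallest p in each of 17 lists; further called members of the lists are given by value. Annotation words cover 1650 gene models and come from the study's table of genes called on these animals, so they are not independent of the result. Gene lists and comparisons were chosen with earlier results of these data known. Alternatives were RLE size factors, other filters, DESeq2 1.42.0, all 48 libraries, other designs, thinning to 100000 counts, and leaving out letters or libraries.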

Additional observations from a re-analysis of the deposited data

Results flagged for a closer look

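The difference between light cycles and DD was unlike between the colours in 7 of the named genes by edgeR's quasi-likelihood test with Benjamini-Hochberg adjustment: helt (NVE8679, adjusted p = 4.76e-05), PAR-bZIPd (NVE8085, 4.59e-22), PAR-bZIPa (NVE14677, 2.69e-05), NVE5408 (2.53e-09), Cry1a (NVE1138, 2.43e-05), Clock (NVE2080, 0.00387) and SRRM1 (NVE13662, 0.0942). It differed among ZT2, ZT6 and ZT10 in CiPC (NVE4116, adjusted p = 0.0645).

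Single animals stood apart from the other 3 of their group (Dixon's test, of which chance gives about 5% in the 130 groups of 4 examined). For PAR-bZIPd these were DD ZT2 replicate D at 3.02 CPM, blue ZT6 replicate C at 105.7 CPM, green ZT2 replicate A at 11.4 CPM and red ZT10 replicate B at 3.2 CPM. For PAR-bZIPa they were green ZT10 replicate A at 32.4 CPM and red ZT2 replicate A at 15.2 CPM. Cry1a stood apart in red ZT2 replicate B (27.5 CPM), Clock in blue ZT6 replicate D (6.36 CPM), and CK1 delta/epsilon in red ZT2 replicate B (154 CPM) and red ZT10 replicate D (130 CPM). PAR-bZIPb did so in blue ZT2 replicate A (112.8 CPM) and red ZT10 replicate D (35.9 CPM), Timeout in blue ZT6 replicate D (57.3 CPM), CiPC in blue ZT10 replicate B (6.08 CPM) and Cry1b in blue ZT2 replicate D (41.2 CPM). In DD ZT2 and red ZT10 for PAR-bZIPd and in blue ZT10 for CiPC the other 3 animals were at 0, so that any count in the remaining animal is marked and the test says nothing there. Library totals stood apart in blue ZT2 replicate A (233951 counts) and green ZT6 replicate D (250830 counts).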

How the results depend on the processing

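The 492 genes called are 4.96% of 9911 tested (2.20% higher, 2.76% lower). With no filter on low counts 209 were called, 0.892% of 23426 (0.367% higher, 0.525% lower). With libraries thinned to 100000 counts 97 were called, 2.43% of 3988 (1.03% and 1.40%), and with all 48 libraries 300, 3.08% of 9728 (1.47% lower). DESeq2 called 702 genes, 3.47% of those tested being higher. RLE factors gave 487 genes, split into 240 higher and 247 lower. Leaving out a library or a replicate letter gave 0.575% to 6.07% of genes (0.202% to 2.90% higher, 0.373% to 3.17% lower). With a mean count of at least 10, which left 4597 genes (4029 at night), 531 were called, or 11.6% (5.74% higher, 5.81% lower). The same filter gave 233 genes (5.07%) at ZT2, 8 (0.174%) at ZT6, 1 (0.0218%) at ZT10 and 0 for the difference among time points. It gave 534 genes (11.6%) in red, 2.39% in green, 169 (3.68%) in blue and 372 (9.23%) at night. Leaving out letters or libraries gave 0.0203% to 1.41% at ZT2 (its DD libraries left out after seeing the data), 0% to 0.0607% at ZT6, 0% to 0.0302% at ZT10, 0% to 0.0403% for the difference among time points, 0.921% to 1.98% in red, 0.0202% to 1.17% in green, 0.334% to 0.454% in blue, 0.295% to 0.323% for the difference between colours, 0.312% to 1.59% at night and 0% to 0.0103% for photoperiod against night.

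Same-lettered animals of different groups did not deviate together (242 pairs, median correlation -0.000134), and the letters are taken only as names. With the letter as a replicate block, 446 genes were called and the difference among time points called 0. Of 55 called named genes, 36 stayed called with any 1 library left out, 15 without each letter, and 11 under every alternative. No called gene reversed. PAR-bZIPc (NVE8107, uncalled) went to 0.0185 with light as 1 factor and 0.0121 with the replicate block, and to -0.229 to 0.415 with libraries or letters left out. CiPC (NVE4116) ranged from -0.00981 to 0.529, Cry1b (NVE24214) from -0.0489 to 0.421 and Timeout (NVE19057) from -0.279 to 0.0346. The cause of these changes was not tested.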
